A study of Mus musculus with 4 samples.

Results

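The experiment set si-Lnc-Dpf3 against si-NC in mouse dendritic cells that had all received CCR7 ligands, with 1 RNA-seq library for each siRNA. Every gene that averaged at least 1 FPKM (fragments per kilobase of transcript per 1e6 fragments) over the 4 libraries of the study was included, which gave 11041 of the 18021 genes listed. The cells, mature BMDCs in the labels (dendritic cells grown from bone marrow), came from the C57BL/6 strain and were kept in GM-CSF plus IL4 over 5 days and then given the maturation stimulus lipopolysaccharide (LPS, 100 ng/ml) over 24 h, and all 4 groups share these steps. They were transfected either with si-Lnc-Dpf3, an siRNA whose name refers to lnc-Dpf3, a long non-coding RNA, or with si-NC, the siRNA it was compared with. The 4 groups were si-Lnc-Dpf3 with CCR7L (the chemokines CCL19 and CCL21) for 12 h, si-NC with CCR7L for 12 h, si-Lnc-Dpf3 left unstimulated, and si-NC left unstimulated. Total RNA was taken with TRIzol and sequenced on a BGISEQ-500 instrument. The labels do not say from how many animals, wells or transfections a library came. With 1 library a group there is no replicate, so no difference below carries a test or an error between cultures, and the words higher and lower describe these libraries only.

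CCR7 is the chemokine receptor that guides mature dendritic cells along CCL19 and CCL21 into lymphatic vessels and lymph nodes, where they present antigen to T cells. Dendritic cells activated through LPS receptors lean on glycolysis for energy and building blocks, and HIF1A, a transcription factor held at low protein levels by oxygen-dependent prolyl hydroxylation, switches on many genes of glucose uptake and glycolysis. The series title places lnc-Dpf3 in this circuit as a restraint on HIF1A-driven glycolysis and on migration. The contrast described here therefore asks whether transcripts of these pathways, or any others, differed between si-Lnc-Dpf3 and si-NC cells once CCR7 had been engaged.

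Depth, read from the steps between low FPKM values, was about 20.8 (si-Lnc-Dpf3 with CCR7L) and 20.5 (si-NC with CCR7L), in units of 1e6 reads, and 20.1 in each unstimulated library. FPKM summed to 474610 to 500607 a library, and 10997 to 11075 genes reached 1 FPKM. For a transcript of the median length of 2821 bases, 1 FPKM is about 58 reads, so that counting alone can give a 1.46-fold ratio at a 95% level, against 1.12-fold at 10 FPKM and 1.04-fold at 100 FPKM. These limits, and the counting intervals below, cover counting error only, and reads without molecular identifiers are not independent molecules. No row held lnc-Dpf3 itself, so its depletion was not analysed here. Dpf3, the protein-coding gene whose name lnc-Dpf3 carries, is no check of it, with 1.35 FPKM in si-Lnc-Dpf3 and 2.03 FPKM in si-NC cells with CCR7L, and 0.89 FPKM in si-Lnc-Dpf3 and 0.93 FPKM in si-NC cells unstimulated. Of 20 conventional dendritic cell markers 16 passed the filter. Ccr7 stood at 615 FPKM with si-Lnc-Dpf3 and 681 FPKM with si-NC, and Irf8, a transcription factor of dendritic cell development, at 163 and 195 FPKM in the same order of groups. Xcr1, Clec9a and Cd209a, markers of particular dendritic cell subsets, were below 0.5 FPKM in every library.

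The siRNA ratio under CCR7L was small for most genes. On the scale of log2(FPKM + 1), on which all log2 ratios here are given as si-Lnc-Dpf3 over si-NC, the median over 11041 genes was 0.01, the central 95% of genes lay between -0.30 and 0.33, and 67.9% were within 1.1-fold of equality. Ratios were above 0 for 5790 genes (52.4%) and below 0 for 5202 (47.1%). A log2 ratio of 0.32, which is 25% more or 20% less of FPKM + 1, is used as the lowest mark of a difference. Past 0.32 upwards with si-Lnc-Dpf3 were 313 genes (2.83%), and past -0.32 downwards were 226 (2.05%). At 1.5-fold these counts were 34 (0.308%) and 25 (0.226%), and at 2-fold they were 4 (0.0362%) and 4 (0.0362%). The 4 genes at least 2-fold higher were Lrg1, Elane, Gm3435 and the ribosomal pseudogene Rpl34-ps1, and 3 of the 4 that were lower were predicted loci, of which LOC100862456 and LOC102641086 hold identical values. The remaining one was Ifit1bl1. Gm3435, Rpl34-ps1 and the predicted loci averaged few reads or have near-identical copies, and are named for their place in this count after their values were seen. Many of these genes were weakly expressed, as 117 of the 313 and 95 of the 226 genes had a mean below 5 FPKM. For 19 of the 294 higher genes and 14 of the 202 lower genes with a known transcript length, the interval from counting alone included a ratio of 1. In bulk samples like these, fewer cells of a type and less RNA per cell cannot be told apart.

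**Figure D1:**
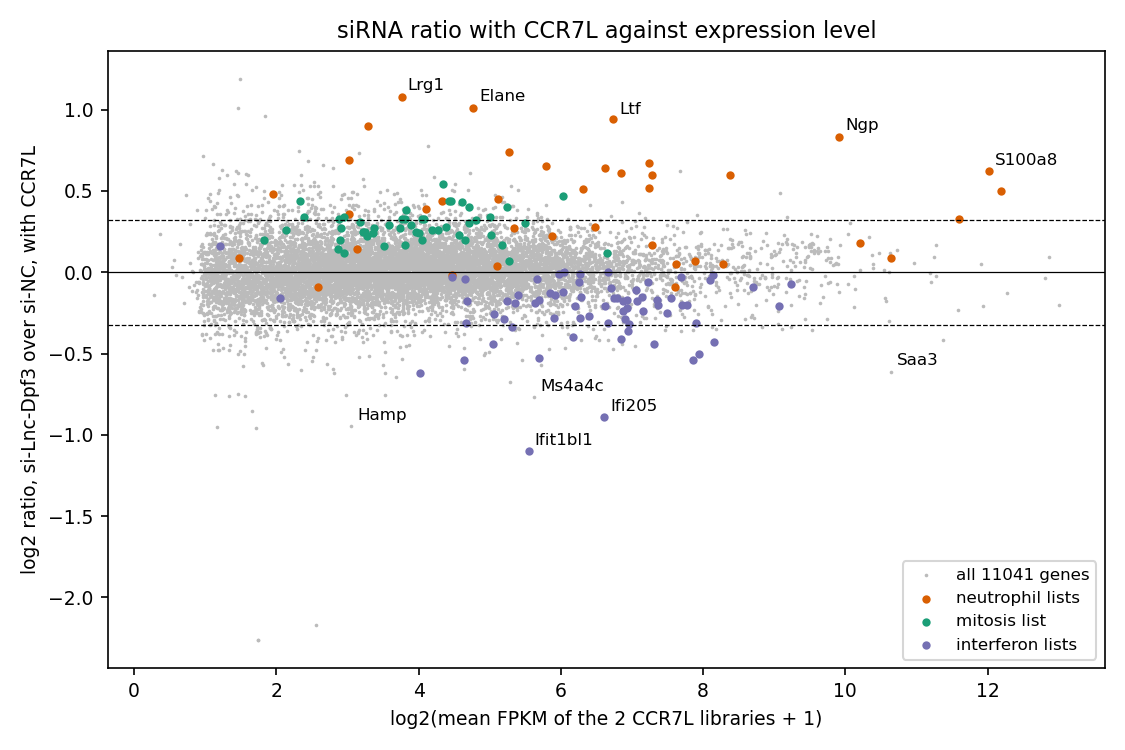
The log2 ratio of si-Lnc-Dpf3 over si-NC with CCR7L (vertical axis) is plotted for each of 11041 genes against log2 of the mean FPKM of both CCR7L libraries plus 1 (horizontal axis); the dashed lines mark 0.32 and -0.32. Genes of the neutrophil lists (orange) run up to 1.08 for Lrg1, mitosis genes (green) lie between 0.07 and 0.54, and genes of the interferon lists (purple) lie mostly below 0, down to -1.10 for Ifit1bl1.

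By function, 3 groups of genes that differed from the median of all genes are described at most length, and smaller lists with medians as far from it follow them. Neutrophil and granule genes were higher with si-Lnc-Dpf3, mitosis genes were higher by a smaller amount, and interferon-stimulated genes were lower. Glycolysis genes, the subject of the series title, stayed within 0.32 one by one under CCR7L. The medians of the main lists and their members are set out in the plot of list members, and the median over all genes kept, 0.01, is the value to read them against. Counts of members higher or lower under CCR7L are to be read against 52.4% and 47.1% of all genes.

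**Figure D2:**
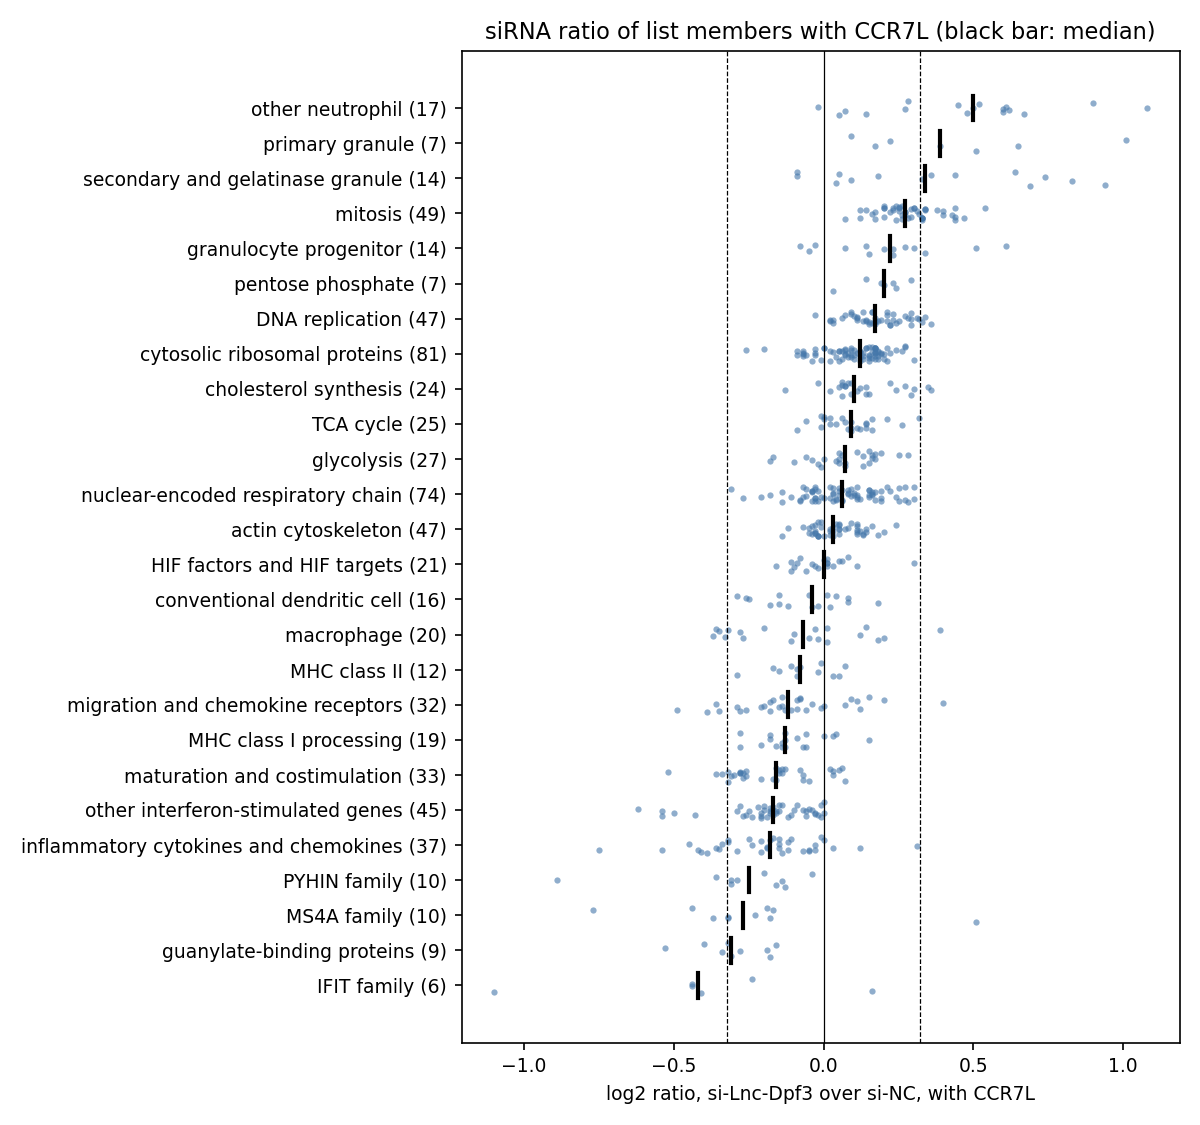
Each point is a gene of the named list (number of members kept in parentheses), placed by its log2 ratio of si-Lnc-Dpf3 over si-NC with CCR7L, and the black bar is the list median; the dashed lines mark 0.32 and -0.32. Medians run from 0.50 for the other neutrophil list at the top to -0.42 for the IFIT family at the bottom.

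Glycolysis transcripts were slightly more abundant in si-Lnc-Dpf3 than in si-NC cells under CCR7L. Of 27 genes of glucose uptake, glycolysis and lactate handling, 19 (70.4%) were higher, beside 52.4% of all genes, and 8 were lower. Past 0.32 either way were 0, and the median log2 ratio was 0.07. Unstimulated, 15 of the 27 were higher, beside 54.3% of all genes, and the median was 0.05. Past 0.32 upwards there were 2, Slc2a3 (0.36) and Slc16a1 (0.33), beside 5.25% of all genes. With a trend over transcript length and GC content subtracted, 63.0% were higher under CCR7L. The medians were then 0.07 with CCR7L and 0.01 unstimulated. The summed level of the 27 genes was 7609 FPKM with si-Lnc-Dpf3 and 6976 FPKM with si-NC under CCR7L, and 6832 FPKM with si-Lnc-Dpf3 and 6649.8 FPKM with si-NC unstimulated. Gapdh, which encodes the dehydrogenase in the middle of the pathway, made up much of that sum, at 2616 FPKM with si-Lnc-Dpf3 and 2328 FPKM with si-NC under CCR7L and 2264 FPKM with si-Lnc-Dpf3 and 2171 FPKM with si-NC unstimulated. Its log2 ratio was 0.17 with CCR7L and 0.06 without, so the si-Lnc-Dpf3 library was the higher one in both pairs.

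Within the pathway, several other enzymes had ratios above that of Gapdh or like it. Gpi1, the isomerase that turns glucose 6-phosphate into fructose 6-phosphate, measured 270.2 FPKM with si-Lnc-Dpf3 and 228 FPKM with si-NC under CCR7L (log2 ratio 0.25), beside 253 and 233 FPKM for the same siRNAs unstimulated (0.12). The log2 ratio under CCR7L was 0.17 for the enolase gene Eno1, 0.16 for the aldolase gene Aldoa, 0.16 for the liver-type phosphofructokinase gene Pfkl, 0.15 for the mutase gene Pgam1 and 0.13 for the pyruvate kinase gene Pkm. Counting intervals of these genes excluded a ratio of 1, as for Gapdh, at 1.11 to 1.14. The interval leaves out variation between cultures, which a single library a side cannot show.

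The glucose transporter gene Slc2a1 measured 64.5 FPKM with si-Lnc-Dpf3 and 59.0 FPKM with si-NC under CCR7L (log2 ratio 0.13), and 61.1 FPKM with si-Lnc-Dpf3 and 62.9 FPKM with si-NC unstimulated (-0.04). Ldha, the lactate dehydrogenase that turns pyruvate into lactate, measured 485 and 469 FPKM in si-Lnc-Dpf3 and si-NC cells with CCR7L (0.05), and 444 and 462 FPKM in si-Lnc-Dpf3 and si-NC cells without (-0.06). Both genes thus had ratios of opposite sign in the stimulated and unstimulated pairs. Slc2a3, another glucose transporter gene, had 7.08 FPKM with si-Lnc-Dpf3 and 6.86 FPKM with si-NC under CCR7L (0.04). Unstimulated it had 8.64 FPKM with si-Lnc-Dpf3 and 6.51 FPKM with si-NC (0.36). The hexokinase genes Hk1, Hk2 and Hk3 had log2 ratios of 0.07, 0.07 and 0.05, and the lactate exporter gene Slc16a3 one of 0.05. Pgk1 (-0.01), Tpi1 (-0.04) and the platelet-type phosphofructokinase gene Pfkp (-0.02) were nearly level between the siRNAs.

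A pair of regulators that make or break down fructose 2,6-bisphosphate, an activator of phosphofructokinase, had ratios of opposite sign. Pfkfb4 had 7.35 FPKM with si-Lnc-Dpf3 and 5.88 FPKM with si-NC (log2 ratio 0.28), whereas Pfkfb3, which favours synthesis of that activator and is far more abundant here, had 111 and 125 FPKM with si-Lnc-Dpf3 and si-NC (-0.17). Pfkfb3 was also lower with si-Lnc-Dpf3 unstimulated, at 91.3 FPKM, against 101 FPKM with si-NC. Eno3, the muscle-type enolase gene, had the same level with either siRNA under CCR7L, at 53.1 FPKM with si-Lnc-Dpf3 and 53.2 FPKM with si-NC, and lower levels unstimulated, at 12.5 FPKM with si-Lnc-Dpf3 and 13.0 FPKM with si-NC. Eno2, at 2.79 and 3.29 FPKM with si-Lnc-Dpf3 and si-NC, had the lowest log2 ratio of the list, -0.18, with a counting interval of the FPKM ratio of 0.68 to 1.06.

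HIF factors and HIF targets that are not glycolysis genes were split evenly. Of 25 genes 4 averaged below 1 FPKM, and of the 21 kept 10 were higher and 11 lower with si-Lnc-Dpf3, 0 were past 0.32, and the log2 ratios ran from -0.16 to 0.30 around a median of 0.00. Hif1a itself measured 67.4 FPKM with si-Lnc-Dpf3 and 71.9 FPKM with si-NC under CCR7L (-0.09), and 74.0 FPKM with si-Lnc-Dpf3 and 71.0 FPKM with si-NC unstimulated (0.06), so the order of the siRNAs was opposite in the 2 pairs. Hif1a mRNA gives no measure of the HIF1A protein. Egln3, a prolyl hydroxylase gene that HIF itself induces, had the highest ratio of the list, with 13.7 FPKM in si-Lnc-Dpf3 and 10.98 FPKM in si-NC cells (0.30). Lowest were Ddit4, an inhibitor of mTOR signalling, at 13.8 and 15.6 FPKM (-0.16), the angiogenic factor gene Vegfa at 17.5 and 19.0 FPKM (-0.11) and the stress-response gene Ndrg1 at 38.9 and 42.2 FPKM (-0.11), each pair with si-Lnc-Dpf3 before si-NC.

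**Figure D3:**
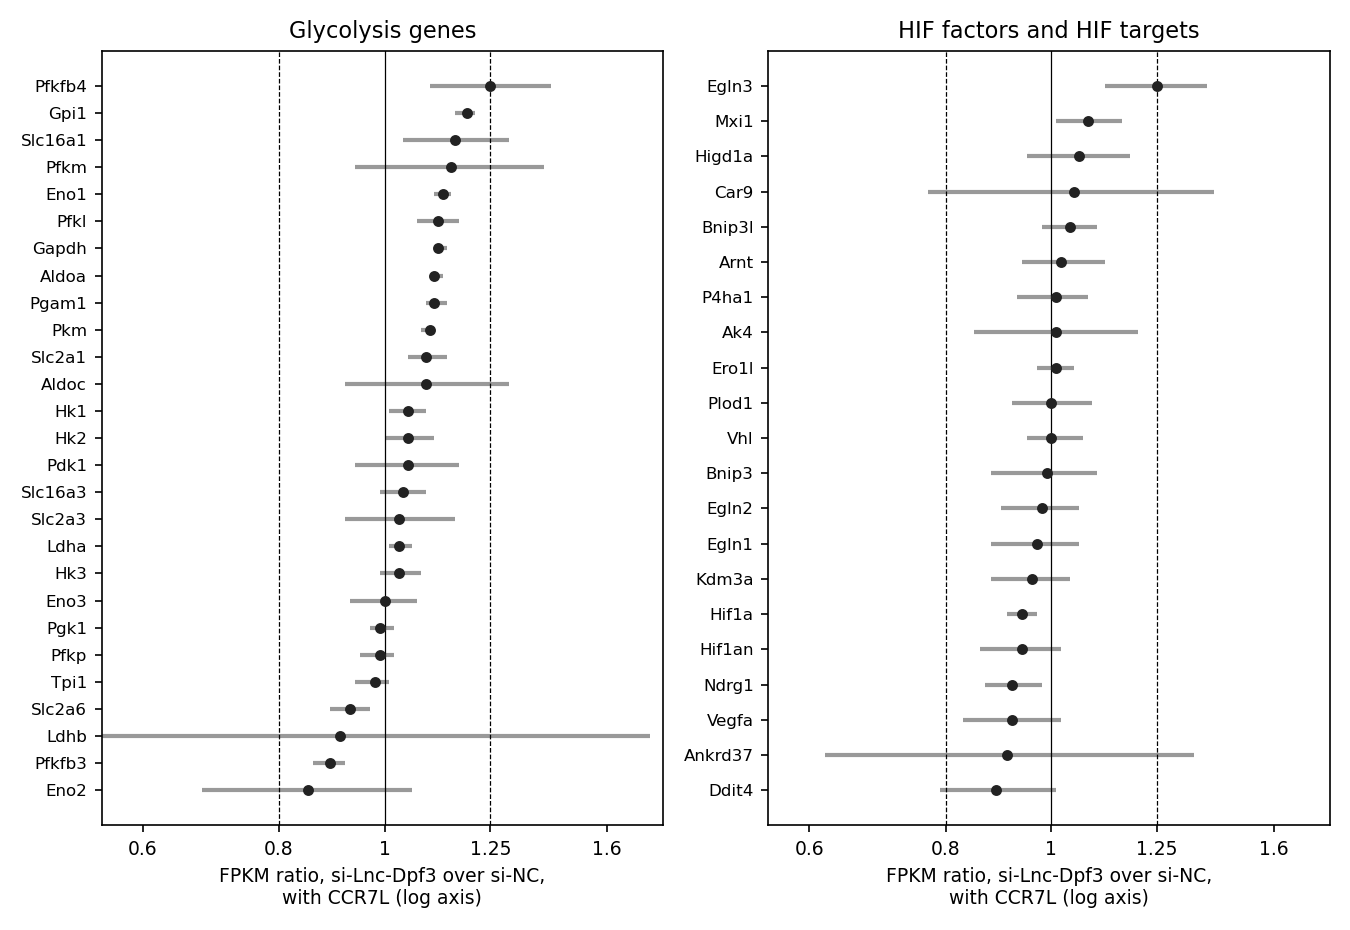
Ratios of FPKM, si-Lnc-Dpf3 over si-NC with CCR7L (log axis), are shown for 27 glycolysis genes (left) and 21 HIF factors and targets (right); points are the measured ratios, grey bars are 95% intervals from estimated read counts that cover counting error only, and dashed lines mark 0.8 and its inverse. Most glycolysis genes lie a little above 1 and the HIF genes lie on both sides of 1.

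A promoter of the pathway is shown for the core that HIF binds, ACGTG, which was sought on both strands together with the other motifs named below in RefSeq promoters of GRCm38.p6, each 250 bases before to 50 bases after a transcript's start. Where RefSeq gives several windows for a gene the first was used, so the start can lie within the gene's span rather than at its end. Promoters were at hand for 8942 of the 11041 genes, and 2368 of them (26.5%) held ACGTG, beside 12 of 26 glycolysis promoters (46.2%) and 11 of 19 promoters of the HIF list (57.9%). The Ldha promoter on the plus strand at chr7:46845554-46845853, shown because Ldha is a textbook HIF target, has 3 stretches with the core in capitals, of which CACGTG reads the same on both strands. A match is a description of the letters and not a bound site.
Ldha: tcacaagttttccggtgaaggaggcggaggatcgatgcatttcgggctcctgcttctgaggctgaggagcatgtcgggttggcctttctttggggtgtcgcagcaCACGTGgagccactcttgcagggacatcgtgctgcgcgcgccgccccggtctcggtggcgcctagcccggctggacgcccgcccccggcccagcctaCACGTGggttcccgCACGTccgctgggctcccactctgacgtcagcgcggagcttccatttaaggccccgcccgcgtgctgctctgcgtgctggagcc

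Of the 15 highest ratios among genes that averaged at least 5 FPKM under CCR7L, 10 belonged to genes of neutrophils and their precursors. All 7 primary granule genes kept were higher with si-Lnc-Dpf3 and 4 were past 0.32 (median log2 ratio 0.39). Of 14 genes of secondary and gelatinase granules 12 were higher and 8 past 0.32 (0.34), and of 17 other neutrophil genes 16 were higher and 11 past 0.32 (0.50). Over all genes 2.83% were past 0.32 upwards. A further primary granule gene and 2 other neutrophil genes averaged below 1 FPKM and are not in these counts. In the unstimulated pair, whose libraries are different ones, the medians were 0.31, 0.42 and 0.56 and the counts past 0.32 were 3, 8 and 11, with 5.25% of all genes past it.

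Among secondary granule genes, Ltf on chromosome 9 (111019292 to 111042766, GRCm38.p6) encodes lactoferrin, an iron-binding antimicrobial protein. It measured 139 FPKM with si-Lnc-Dpf3 and 72.0 FPKM with si-NC under CCR7L, and 155 FPKM with si-Lnc-Dpf3 and 74.1 FPKM with si-NC unstimulated (log2 ratios 0.94 and 1.05). Ngp, the neutrophilic granule protein gene on chromosome 9 (110419808 to 110423012), was far more abundant, at 1234 FPKM with si-Lnc-Dpf3 and 692 FPKM with si-NC under CCR7L, and 1233 FPKM with si-Lnc-Dpf3 and 687 FPKM with si-NC unstimulated (0.83 and 0.84). For both genes the si-Lnc-Dpf3 libraries stood together above both si-NC libraries, whatever the stimulation. Camp, the cathelicidin gene (119 and 76.0 FPKM with si-Lnc-Dpf3 and si-NC), Cd177, a neutrophil surface protein gene (47.2 and 27.8 FPKM), and the ficolin gene Fcnb (9.03 and 5.21 FPKM) had log2 ratios of 0.64, 0.74 and 0.69. Not all granule genes differed by as much. Lcn2, the lipocalin gene that LPS also induces outside neutrophils, was at 1641 FPKM with si-Lnc-Dpf3 and 1540.0 FPKM with si-NC (0.09), and Mcpt8, a protease gene of basophils, at 188 and 199.7 FPKM (-0.09).

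Primary granule genes are made earliest in granulocyte development. Elane, the neutrophil elastase gene, measured 35.4 FPKM with si-Lnc-Dpf3 and 17.0 FPKM with si-NC under CCR7L, and 34.2 FPKM with si-Lnc-Dpf3 and 19.9 FPKM with si-NC unstimulated. The FPKM ratio under CCR7L was 2.08, with a counting interval of 1.82 to 2.37. Prtn3, the proteinase 3 gene, had 66.4 and 41.9 FPKM with si-Lnc-Dpf3 and si-NC under CCR7L (0.65), and Mpo, the myeloperoxidase gene, 18.5 and 13.9 FPKM (0.39). Ms4a3, a membrane protein gene of granulocyte-monocyte precursors, had 92.0 and 64.4 FPKM (0.51). Ctsg and Serpinb1a, a serine protease gene and the gene of an inhibitor of such proteases, differed less, with log2 ratios of 0.22 and 0.17.

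The most abundant transcripts of the group were S100a8 and S100a9, the subunits of the calcium-binding heterodimer calprotectin. S100a8 measured 5022 FPKM with si-Lnc-Dpf3 and 3269 FPKM with si-NC under CCR7L, and 4691 FPKM with si-Lnc-Dpf3 and 3020.4 FPKM with si-NC unstimulated (0.62 and 0.64). S100a9 had log2 ratios of 0.50 with CCR7L and 0.64 without. Lrg1, a secreted leucine-rich glycoprotein gene, had the highest log2 ratio of all genes that averaged at least 5 FPKM, 1.08, from 17.4 FPKM with si-Lnc-Dpf3 and 7.69 FPKM with si-NC. Ceacam10 followed the same order in both pairs, at 11.8 FPKM with si-Lnc-Dpf3 and 5.82 FPKM with si-NC under CCR7L, and 11.7 FPKM with si-Lnc-Dpf3 and 5.81 FPKM with si-NC unstimulated. Pglyrp1, a peptidoglycan recognition protein gene of neutrophil granules, had 185 FPKM with si-Lnc-Dpf3 and 115 FPKM with si-NC (0.67). Stfa2 and BC100530, genes of the stefin A cluster whose copies are near-identical so that reads may be split among them, had log2 ratios of 0.61 and 0.60.

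Transcription factors of granulocyte precursors were also measured. Of 14 granulocyte progenitor genes kept, 11 were higher with si-Lnc-Dpf3 and 3 past 0.32, beside 2.83% of all genes, with a median of 0.22. Cebpe, the C/EBP family factor that drives secondary granule genes, had 31.0 FPKM with si-Lnc-Dpf3 and 19.99 FPKM with si-NC under CCR7L (0.61), and 28.8 FPKM with si-Lnc-Dpf3 and 21.7 FPKM with si-NC unstimulated (0.39). Myb and Gfi1, a factor of progenitors and a repressor needed for neutrophil formation, had 0.30 and 0.27, and Myc 0.34. Whether the share of granulocyte precursors differed between the cultures was not tested.

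The promoters of Ltf and Ngp are shown because both genes are known targets of C/EBP factors. The C/EBP-type letters TTGCNNAA, on either strand, were present in 11 of 34 neutrophil promoters (32.4%) and in 752 of all 8942 (8.4%). The Ltf promoter (chr9:111019042-111019341, plus strand) holds 1 match, 75 bases before the start, and the Ngp promoter (chr9:110419558-110419857, plus strand) 2, the first 138 bases before it. Matches are in capitals.
Ltf: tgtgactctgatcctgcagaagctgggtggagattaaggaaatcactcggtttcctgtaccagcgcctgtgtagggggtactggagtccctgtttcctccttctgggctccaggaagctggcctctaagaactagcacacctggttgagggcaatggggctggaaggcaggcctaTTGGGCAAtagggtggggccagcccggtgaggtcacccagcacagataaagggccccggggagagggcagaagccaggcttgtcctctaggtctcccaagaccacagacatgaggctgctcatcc
Ngp: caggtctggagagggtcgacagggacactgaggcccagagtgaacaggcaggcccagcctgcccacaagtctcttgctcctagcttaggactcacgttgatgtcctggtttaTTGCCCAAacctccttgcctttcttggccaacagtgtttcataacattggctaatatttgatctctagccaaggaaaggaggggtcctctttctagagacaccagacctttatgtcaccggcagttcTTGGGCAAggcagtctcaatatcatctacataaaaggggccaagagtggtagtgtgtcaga

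**Figure D4:**
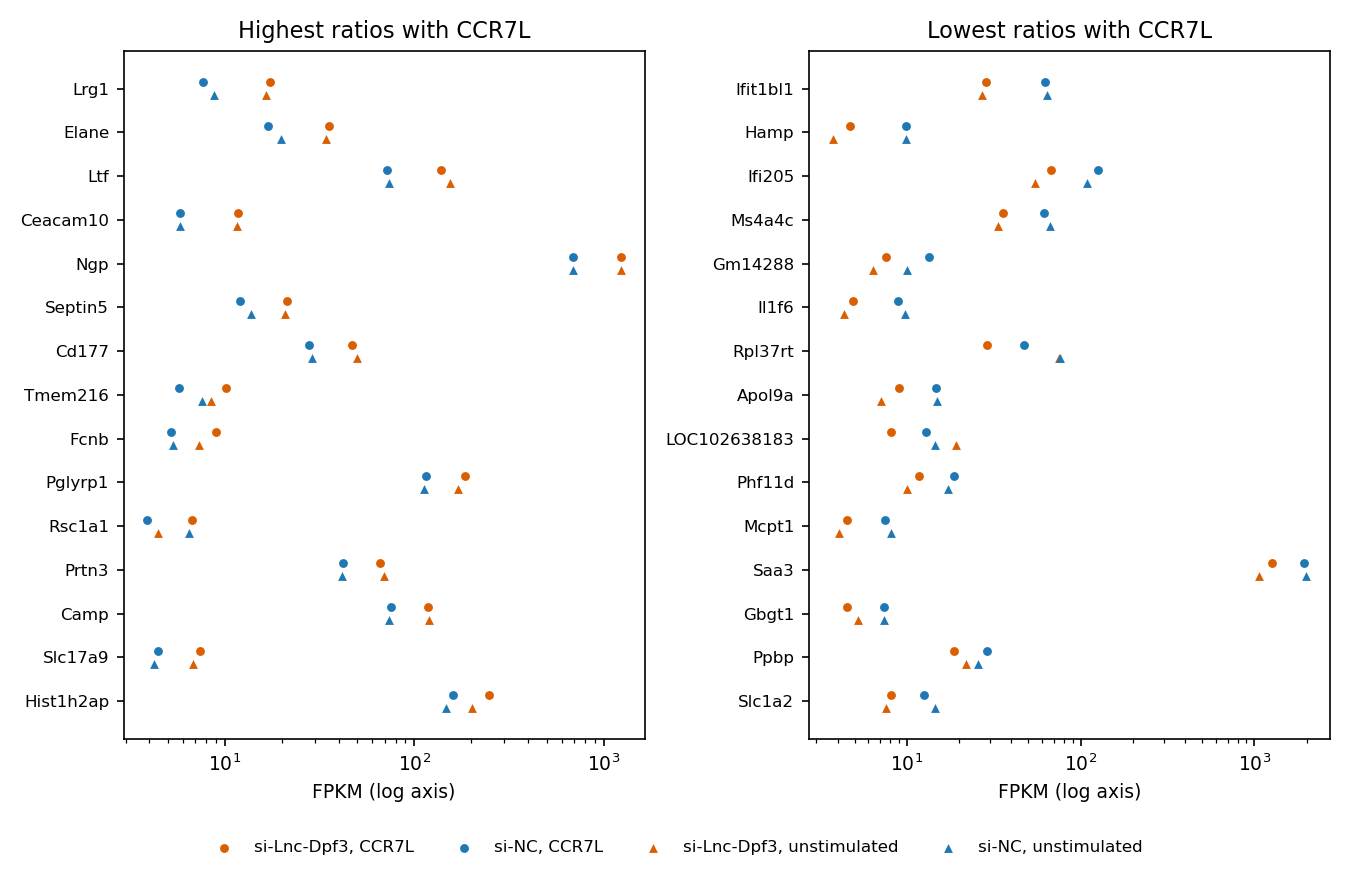
FPKM (log axis) in each of the 4 libraries is plotted for the 15 genes with the highest (left) and the 15 with the lowest (right) siRNA ratio under CCR7L among genes that averaged at least 5 FPKM over both CCR7L libraries; circles are cells with CCR7L, triangles unstimulated cells, orange si-Lnc-Dpf3 and blue si-NC. For most genes both orange symbols lie on one side of both blue ones; exceptions include Rsc1a1 and LOC102638183, where the order differs between circles and triangles.

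Genes of cell division made up the second group that was higher with si-Lnc-Dpf3. All 49 mitosis genes had ratios above 0, from 0.07 to 0.54 with a median of 0.27, and 18 were past 0.32, beside 2.83% of all genes. Unstimulated, all 49 were again higher and 41 were past 0.32, beside 5.25% of all genes, with a median of 0.43. After median-ratio scaling of the libraries 10 rather than 18 were past 0.32 under CCR7L. Aurkb, the kinase of the chromosomal passenger complex, measured 23.1 FPKM with si-Lnc-Dpf3 and 15.6 FPKM with si-NC under CCR7L (0.54), and 23.5 FPKM with si-Lnc-Dpf3 and 17.9 FPKM with si-NC unstimulated (0.37). Ube2c and Cdc20, a ubiquitin-conjugating enzyme and an activator of the anaphase-promoting complex, had log2 ratios of 0.47 and 0.44, from 74.9 and 24.3 FPKM with si-Lnc-Dpf3 and 53.7 and 17.6 FPKM with si-NC. Plk1, a mitotic kinase gene, had 0.43 and the cyclin B2 gene Ccnb2 0.44, and each had a similar ratio unstimulated (0.47 and 0.49). Top2a, the topoisomerase gene, went the same way with 48.7 FPKM with si-Lnc-Dpf3 and 39.2 FPKM with si-NC (0.30), and its unstimulated ratio was larger (0.55).

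Genes of DNA replication had the same direction and a smaller size. Of 47, 46 were higher and 4 past 0.32, beside 2.83% of all genes, with a median of 0.17. Unstimulated, 44 were higher and 18 past 0.32, beside 5.25% of all genes, with a median of 0.27. The count of 4 became 1 under median-ratio scaling. Tk1, the thymidine kinase gene, had 26.1 FPKM with si-Lnc-Dpf3 and 20.1 FPKM with si-NC (0.36), and the helicase subunit genes Mcm7 and Mcm4 had 0.34 and 0.33. Pcna, the sliding clamp gene and the most abundant of the list, measured 147 FPKM with si-Lnc-Dpf3 and 136 FPKM with si-NC (0.11). Of 64 clustered histone genes only 9 passed the filter. Hist1h2ap was the highest of these, with 247 and 160.4 FPKM in si-Lnc-Dpf3 and si-NC cells (0.62), but histone genes of a class are near-identical and mostly lack the poly(A) tail on which many RNA-seq protocols select, so their values are uncertain.

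Promoters of mitosis genes often carry a cell cycle homology region, CHR, here TTTGAA or TTCGAA on either strand. It was present in 34 of 43 mitosis promoters (79.1%) and in 1289 of all 8942 (14.4%), and the CCAAT box in 74.4% and 39.4%. Promoters of DNA replication genes held the CHR letters in 7 of 38 (18.4%), close to the share over all genes. The promoters of Ccnb2 (chr9:70421505-70421804) and Cdc20 (chr4:118437294-118437593), both on the minus strand, are shown with CHR matches in capitals. In Cdc20 the match begins 18 bases before the start.
Ccnb2: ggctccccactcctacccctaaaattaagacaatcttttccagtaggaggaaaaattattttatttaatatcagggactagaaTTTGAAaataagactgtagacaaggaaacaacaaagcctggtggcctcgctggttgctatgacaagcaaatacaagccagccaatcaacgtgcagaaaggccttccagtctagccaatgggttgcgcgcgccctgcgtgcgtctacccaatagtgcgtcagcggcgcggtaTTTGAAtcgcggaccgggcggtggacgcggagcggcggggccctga
Cdc20: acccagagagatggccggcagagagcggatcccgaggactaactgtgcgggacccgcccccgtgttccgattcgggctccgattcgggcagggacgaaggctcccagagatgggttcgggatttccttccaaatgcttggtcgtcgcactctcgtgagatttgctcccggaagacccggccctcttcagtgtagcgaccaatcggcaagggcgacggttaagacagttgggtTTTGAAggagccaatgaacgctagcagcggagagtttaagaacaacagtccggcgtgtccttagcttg

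Interferon-stimulated genes were lower with si-Lnc-Dpf3 under CCR7L. Type I interferon, which LPS induces in dendritic cells, acts through STAT and IRF factors on a common set of antiviral genes, and 4 lists of them were measured. In the IFIT family, whose proteins bind viral RNA, 5 of 6 genes were lower and 4 past 0.32 (median -0.42). All 10 PYHIN genes, which include sensors of DNA, were lower and 2 past 0.32 (-0.25). All 9 guanylate-binding protein genes were lower and 3 past 0.32 (-0.31), and of 45 other interferon-stimulated genes 43 were lower and 5 past 0.32 (-0.17). Over all genes 2.05% were past 0.32 downwards. Unstimulated, the medians were -0.36, -0.18, -0.31 and -0.13, and the counts past 0.32 3, 1, 4 and 10, with 4.22% of all genes past it. Under median-ratio scaling the PYHIN and guanylate-binding protein counts became 4 and 5.

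Ifit1bl1 on chromosome 19 (34592888 to 34662981) had the lowest ratio of all genes that averaged at least 5 FPKM over the CCR7L libraries. It measured 28.7 FPKM with si-Lnc-Dpf3 and 62.7 FPKM with si-NC under CCR7L, and 27.1 FPKM with si-Lnc-Dpf3 and 64.0 FPKM with si-NC unstimulated (log2 ratios -1.10 and -1.21). Its relatives differed less: Ifit3 had 134 FPKM with si-Lnc-Dpf3 and 182 FPKM with si-NC (-0.44), Ifit2 -0.41 and Ifit1 -0.24. Ifit1bl2, near 1 FPKM, was the only one of the family above 0, at 0.16. Members of this family share stretches of sequence, and how reads were divided among them is not given in the sources used here.

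Ifi205, a PYHIN gene on chromosome 1 (174011998 to 174031755), measured 67.2 FPKM with si-Lnc-Dpf3 and 126 FPKM with si-NC under CCR7L, and 54.9 FPKM with si-Lnc-Dpf3 and 109 FPKM with si-NC unstimulated (-0.89 and -0.98). Other members of the family were closer to equal, with -0.36 for Ifi204, -0.31 for Pyhin1 and -0.20 for Mnda. Gbp4 and Gbp3, GTPases that act on intracellular pathogens, had -0.53 and -0.40, and the more abundant Gbp2, with 212 FPKM in si-Lnc-Dpf3 and 263 FPKM in si-NC cells, -0.31. Over all members the log2 ratios ran from -0.53 to -0.16 in the guanylate-binding protein list and from -0.89 to -0.04 in the PYHIN list.

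Among other interferon-stimulated genes, the T cell chemoattractant gene Cxcl10 had 204 FPKM with si-Lnc-Dpf3 and 288 FPKM with si-NC under CCR7L (-0.50), and 200.8 FPKM with si-Lnc-Dpf3 and 299 FPKM with si-NC unstimulated (-0.57). Rsad2, the antiviral viperin gene, had 187 and 274 FPKM with si-Lnc-Dpf3 and si-NC (-0.54), the GTPase gene Iigp1 -0.54, Phf11d -0.62 and the surface antigen gene Ly6a -0.43. All 5 were lower with si-Lnc-Dpf3 unstimulated as well, with log2 ratios of -0.48 for Iigp1, -0.53 for Rsad2, -0.73 for Phf11d and -0.71 for Ly6a beside that of Cxcl10. Isg15, a ubiquitin-like modifier gene, and Irf7, the factor that amplifies interferon transcription, were nearer to level, at -0.21 and -0.09. Under CCR7L the size of the difference therefore varied from gene to gene within the interferon programme, and the direction hardly did. The direction was less uniform unstimulated, where 37 of the 45 genes of this list were lower and 8 higher.

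The IRF-type letters GAAANNGAA, on either strand, were present in 36 of 54 promoters of the interferon lists (66.7%) and in 676 of all 8942 (7.6%). The promoters of Ifit1bl1 (chr19:34601919-34602218, minus strand), Ifit3 (chr19:34583279-34583578, plus strand) and Cxcl10 (chr5:92348840-92349139, minus strand) are shown because their values are given in full above, with the matches in capitals. The Ifit3 promoter holds 3 matches, Ifit1bl1 2 and Cxcl10 1. The first lies 155 bases before the start in Ifit3, 192 in Ifit1bl1 and 213 in Cxcl10, so the number of matches does not follow the size of the ratio in these 3 genes.
Ifit1bl1: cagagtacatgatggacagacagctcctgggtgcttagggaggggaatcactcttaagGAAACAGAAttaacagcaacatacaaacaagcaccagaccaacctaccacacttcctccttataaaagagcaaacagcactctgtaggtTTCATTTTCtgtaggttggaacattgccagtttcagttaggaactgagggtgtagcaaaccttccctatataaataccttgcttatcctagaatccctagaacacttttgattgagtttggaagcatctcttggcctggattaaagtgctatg
Ifit3: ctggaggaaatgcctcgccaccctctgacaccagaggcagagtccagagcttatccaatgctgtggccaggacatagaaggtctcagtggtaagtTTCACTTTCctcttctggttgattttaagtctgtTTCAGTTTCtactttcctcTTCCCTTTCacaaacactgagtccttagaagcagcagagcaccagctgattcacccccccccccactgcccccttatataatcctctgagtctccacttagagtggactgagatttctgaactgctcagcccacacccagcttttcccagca
Cxcl10: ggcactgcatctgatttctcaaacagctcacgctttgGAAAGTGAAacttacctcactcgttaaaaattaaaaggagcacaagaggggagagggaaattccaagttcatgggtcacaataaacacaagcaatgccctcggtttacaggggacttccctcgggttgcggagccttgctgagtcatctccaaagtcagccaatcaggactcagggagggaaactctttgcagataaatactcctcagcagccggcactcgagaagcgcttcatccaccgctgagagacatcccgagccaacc

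Inflammatory cytokine and chemokine genes were lower with si-Lnc-Dpf3 too. Of 37, 33 were lower and 10 past 0.32, beside 2.05% of all genes, with a median of -0.18. Unstimulated 33 were lower and 17 past 0.32, beside 4.22% of all genes, with a median of -0.30. Il1f6, the interleukin 36 alpha gene, had 4.88 FPKM with si-Lnc-Dpf3 and 8.91 FPKM with si-NC (-0.75), and Nos2, the inducible nitric oxide synthase gene, 34.9 and 51.1 FPKM (-0.54). Ccl5, the most abundant chemokine gene of the list, measured 2283 FPKM with si-Lnc-Dpf3 and 3042 FPKM with si-NC under CCR7L (-0.41), and 2493 FPKM with si-Lnc-Dpf3 and 4019 FPKM with si-NC unstimulated (-0.69). Genes of both interleukin 12 subunits were on the same side, Il12a at -0.45 and Il12b at -0.39, as were Il1a (-0.36) and Il1b (-0.29). Of 20 NF-kappaB factors and feedback inhibitors 17 were lower, most by small amounts, beside 47.1% of all genes. Past 0.32 were 2, Tnfaip3 at -0.33 and Socs3 at -0.35, beside 2.05% of all genes. The median was -0.07 with CCR7L and -0.18 unstimulated. With the trend over length and GC content subtracted, these medians were -0.13 and -0.17.

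Acute phase and iron genes were split between both directions, 7 higher and 8 lower, yet held some of the lowest ratios. Saa3, an acute phase serum amyloid gene strongly induced by LPS, measured 1261 FPKM with si-Lnc-Dpf3 and 1927 FPKM with si-NC under CCR7L, and 1059 FPKM with si-Lnc-Dpf3 and 1982 FPKM with si-NC unstimulated (-0.61 and -0.90). Hamp, the gene of the iron hormone hepcidin, had 4.68 FPKM with si-Lnc-Dpf3 and 9.95 FPKM with si-NC under CCR7L (-0.95), with a counting interval of the FPKM ratio of 0.31 to 0.70. Orm1 had -0.52, and the complement factor gene Cfb -0.26. The ferritin chains parted, Fth1 at -0.20 and Ftl1 at 0.09.

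Markers of dendritic cell maturation were slightly lower. Of 33 maturation and costimulation genes 27 were lower, beside 47.1% of all genes, and 4 past 0.32, beside 2.05% of all genes, with a median of -0.16. Unstimulated 30 were lower and 8 past 0.32, beside 4.22% of all genes, with a median of -0.26. Ido1, the tryptophan-degrading enzyme gene, had 2.54 FPKM with si-Lnc-Dpf3 and 4.09 FPKM with si-NC (-0.52). The costimulatory ligand genes Cd80 and Tnfsf4 had log2 ratios of -0.31 and -0.34, and Pdcd1lg2, the gene of a ligand of the inhibitory receptor PD-1, had -0.32. The chemokine genes that mark mature dendritic cells were very abundant, Ccl22 at 4714 FPKM with si-Lnc-Dpf3 and 5145 FPKM with si-NC (-0.13) and Ccl17 at 1402 and 1727 FPKM (-0.30).

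Antigen presentation genes lay on the same side and closer to equality. Of 12 MHC class II genes 9 were lower, beside 47.1% of all genes, and 0 past 0.32. Their median was -0.08 under CCR7L and -0.27 unstimulated. Cd74, the invariant chain gene, was level under CCR7L, at 2462 FPKM with si-Lnc-Dpf3 and 2499.9 FPKM with si-NC (-0.02), and less so unstimulated, at 1516 FPKM with si-Lnc-Dpf3 and 1856 FPKM with si-NC (-0.29). Of 19 MHC class I genes 15 were lower, beside 47.1% of all genes, and 0 past 0.32, with a median of -0.13. B2m, the light chain gene, had -0.21, the heavy chain genes H2-K1 and H2-D1 -0.16 and -0.18, and H2-Q4 and H2-Q7, close relatives whose reads may be shared, -0.28 and -0.28.

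Genes of migration, the behaviour in the series title, were more often lower than higher with si-Lnc-Dpf3. Of 32 genes of chemokine receptors, integrins, proteases and lipid receptors, 25 were lower, beside 47.1% of all genes, and 7 higher. Past 0.32 were 4 downwards and 1 upwards, beside 2.05% and 2.83% of all genes. The median was -0.12, beside -0.11 unstimulated. Ccr7, the receptor for both ligands, measured 615 FPKM with si-Lnc-Dpf3 and 681 FPKM with si-NC under CCR7L (-0.15), and 685 FPKM with si-Lnc-Dpf3 and 808 FPKM with si-NC unstimulated (-0.24). S1pr4, a sphingosine 1-phosphate receptor gene, was the one higher past 0.32, at 8.50 FPKM with si-Lnc-Dpf3 and 6.21 FPKM with si-NC (0.40). Among those lower past it were Timp3, a metalloprotease inhibitor gene at low level (-0.49), Ccrl2, an atypical receptor that presents chemerin (-0.39) and the elastase gene Mmp12 (-0.36). Actin cytoskeleton genes did not lean to either side, with 29 of 47 higher, 0 past 0.32 and a median of 0.03, and Actb at 3900.4 FPKM with si-Lnc-Dpf3 and 3760.1 FPKM with si-NC (0.05). Fscn1, the actin-bundling fascin gene of mature dendritic cells, had 0.05.

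Other metabolic pathways gave small differences, with most members higher with si-Lnc-Dpf3, beside 52.4% of all genes. All 7 genes of the pentose phosphate pathway, which yields NADPH and ribose from glucose 6-phosphate, were higher with si-Lnc-Dpf3 (median 0.20, 0 past 0.32). Tkt, the transketolase gene, measured 197 FPKM with si-Lnc-Dpf3 and 161 FPKM with si-NC under CCR7L (0.29), and 191 FPKM with si-Lnc-Dpf3 and 160.0 FPKM with si-NC unstimulated (0.25). Taldo1, the transaldolase gene, had 0.24, and G6pdx, the enzyme of the first step, 0.19. For Pgls the order of the siRNAs was opposite in the unstimulated pair, at 0.20 with CCR7L and -0.16 without.

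In the TCA cycle 19 of 25 genes were higher and 5 lower (median 0.09), beside 52.4% and 47.1% of all genes. Idh2, a mitochondrial isocitrate dehydrogenase gene, had the highest ratio, at 29.4 FPKM with si-Lnc-Dpf3 and 23.3 FPKM with si-NC (0.32). In cholesterol synthesis 22 of 24 genes were higher and 2 past 0.32, beside 52.4% and 2.83% of all genes (median 0.10, and 0.19 unstimulated). These 2 were Fdps, the farnesyl diphosphate synthase gene, at 0.36 and the last-step reductase gene Dhcr7 at 0.35. Serine synthesis genes under ATF4 control led a list that otherwise stayed near equality (18 of 25 higher, median 0.07): Phgdh measured 132 FPKM with si-Lnc-Dpf3 and 97.8 FPKM with si-NC (0.43) and Psat1 had 0.34. Atf4 itself was equal, at 194 FPKM with si-Lnc-Dpf3 and 194 FPKM with si-NC.

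Several groups had median ratios of opposite sign with and without CCR7L. Of 81 cytosolic ribosomal protein genes 67 were higher with si-Lnc-Dpf3 under CCR7L (median 0.12), whereas unstimulated 65 were lower (-0.08). Rpl41, of the large subunit, had 1475 FPKM with si-Lnc-Dpf3 and 1359.8 FPKM with si-NC under CCR7L (0.12), and 1188 FPKM with si-Lnc-Dpf3 and 1442 FPKM with si-NC unstimulated (-0.28). Rps2, of the small subunit, was higher with si-Lnc-Dpf3 in both pairs (0.30 and 0.06). Nuclear-encoded respiratory chain genes did likewise, with 49 of 74 higher under CCR7L (median 0.06) and 49 lower unstimulated (-0.07). These lists have median transcript lengths of 799 and 722 bases, against 2821 over all genes. In the shortest of 5 length classes of all genes the median log2 ratio was 0.029 with CCR7L and -0.083 unstimulated, and in the longest -0.022 with CCR7L and 0.111 unstimulated. With the trend over length and GC content subtracted, the medians were 0.07 with CCR7L and 0.03 without for ribosomal proteins, and 0.01 and 0.04 for the respiratory chain, so that neither list then had medians of opposite sign. What gives rise to the trend was not tested. Of 12 apolipoprotein L genes 5 passed the filter, and 3 of the 5 were lower by more than 0.32 with CCR7L, beside 2.05% of all genes. Apol9a and Apol9b, interferon-induced copies that resemble each other, were lower in both pairs (-0.65 and -0.34 with CCR7L, -0.97 and -0.58 without). Apol10b was lower with CCR7L, at 4.97 FPKM with si-Lnc-Dpf3 and 6.83 FPKM with si-NC (-0.39), and near level and near the filter unstimulated (0.05).

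**Figure D5:**
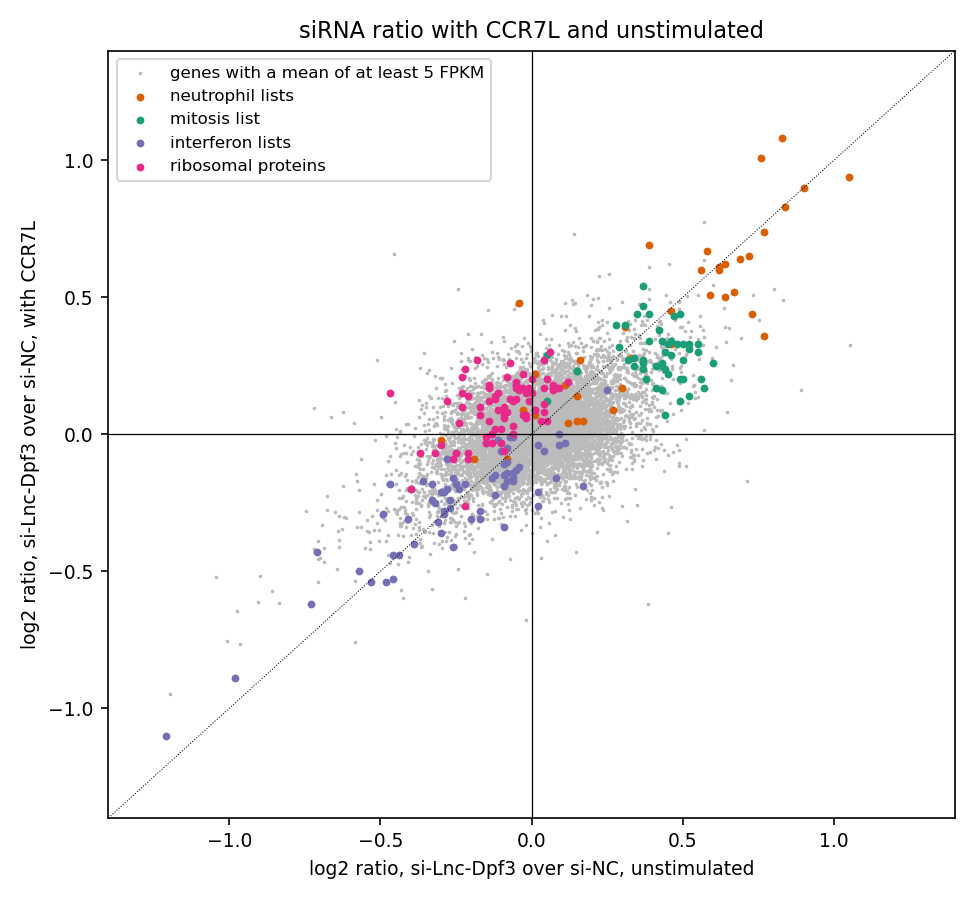
The log2 ratio of si-Lnc-Dpf3 over si-NC with CCR7L (vertical axis) is plotted against the same ratio in unstimulated cells (horizontal axis). Grey points are genes that averaged at least 5 FPKM over both CCR7L libraries. Coloured list members are shown without that limit, and the dotted line marks equal ratios. Neutrophil genes (orange) extend to the upper right and interferon genes (purple) to the lower left, mitosis genes (green) lie mostly below the line on the right, and ribosomal protein genes (pink) lie mostly above 0 on the vertical and below 0 on the horizontal axis.

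Gene by gene, the unstimulated pair measures the same siRNA contrast in libraries that the stimulated pair does not use. Of the 313 genes past 0.32 under CCR7L, 260 (83.1%) also had a ratio above 0 unstimulated, beside 54.3% of all genes. Past 0.32 upwards in both pairs were 156 genes, 49.8% of the 313 and 26.9% of the 580 unstimulated (5.25% of all genes). Of the 226 lower genes 191 (84.5%) were below 0 unstimulated, beside 5000 of all 11041 genes. Past 0.32 downwards in both pairs were 108 genes, 47.8% of the 226 and 23.2% of the 466 unstimulated (4.22%). Only 6 and 7 of the 313 and 226 genes were past 0.32 in the opposite direction unstimulated. Over 11041 genes Spearman's rho between both ratios was 0.37 and Pearson's r 0.44, and over the 4083 genes that averaged at least 20 FPKM they were 0.50 and 0.63. Genes are not independent replicates, and anything that sets the si-Lnc-Dpf3 cultures apart from the si-NC cultures in both pairs would enter both ratios.

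A few well-measured genes differed between the pairs. Dcstamp, a fusion protein gene of osteoclasts and dendritic cells, was level under CCR7L, at 11.3 FPKM with si-Lnc-Dpf3 and 10.6 FPKM with si-NC (0.08), and lower with si-Lnc-Dpf3 unstimulated, at 9.30 FPKM, against 14.9 FPKM with si-NC (-0.62). Clec4b2, a C-type lectin gene, was 10.3 FPKM with si-Lnc-Dpf3 and 9.15 FPKM with si-NC under CCR7L (0.16), and 14.8 FPKM with si-Lnc-Dpf3 and 7.52 FPKM with si-NC unstimulated (0.89). Tmem216, a ciliary membrane protein gene, was higher under CCR7L, at 10.2 FPKM with si-Lnc-Dpf3 and 5.73 FPKM with si-NC (0.73), and nearly level unstimulated (0.14). With 1 library a group, the difference between the pairs was not tested for any of them. Near-identical or predicted genes such as Tmem254b, Rnaset2b, Gapdh-ps15, Gm10698 and LOC105247075 also parted between the pairs, and their values are uncertain because reads can be assigned to either copy.

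Markers of other cells give the makeup of the cultures beside these results. Macrophage markers went both ways (median -0.07), with 13 of 20 lower and 5 past 0.32 downwards, beside 2.05% of all genes. The other 7 were higher, with 1, Mrc1 (0.39), past 0.32 upwards, beside 2.83% of all genes. Their summed levels were 4174 FPKM with si-Lnc-Dpf3 and 4279 FPKM with si-NC for all 20, with Gpnmb at 377 FPKM with si-Lnc-Dpf3 and 458 FPKM with si-NC (-0.28), and Adgre1, the F4/80 gene, at 158 and 199 FPKM (-0.33). Mast cell and basophil markers were lower in 8 of 9 (median -0.09), beside 47.1% of all genes. Their summed levels were 669 FPKM with si-Lnc-Dpf3 and 721 FPKM with si-NC. The other neutrophil list summed to 12277 FPKM with si-Lnc-Dpf3 and 8478 FPKM with si-NC under CCR7L, and to 12096 FPKM with si-Lnc-Dpf3 and 7953 FPKM with si-NC unstimulated. S100a8 and S100a9 alone made up most of each sum. Other members were far less abundant, such as Cxcr2 at 8.16 FPKM with si-Lnc-Dpf3 and 7.33 FPKM with si-NC under CCR7L (0.14). Csf3r was the only member of 17 that was lower under CCR7L, at 21.1 and 21.4 FPKM in the same order (-0.02), and 16 were higher. Its unstimulated ratio was -0.30. Ly6g, a surface marker of mature neutrophils, was looked up after the values were seen and stood at 3.51 FPKM with si-Lnc-Dpf3 and 2.23 FPKM with si-NC under CCR7L, and at 3.85 FPKM with si-Lnc-Dpf3 and 3.98 FPKM with si-NC unstimulated. Primary granule genes summed to 439 FPKM with si-Lnc-Dpf3 and 338 FPKM with si-NC under CCR7L, and secondary and gelatinase granule genes to 8449.6 FPKM with si-Lnc-Dpf3 and 6826 FPKM with si-NC. Eosinophil markers were 4 higher and 4 lower, and plasmacytoid dendritic cell markers 2 higher and 3 lower. Of 12 erythroid and stromal genes 3 passed the filter and all 3 were higher, with 30.8 FPKM in all with si-Lnc-Dpf3 and 27.4 FPKM with si-NC. B, T and NK cell markers were near 0, with 5 of 13 kept and a summed level of 11.4 FPKM with si-Lnc-Dpf3 and 11.8 FPKM with si-NC. Of 16 conventional dendritic cell markers 10 were lower under CCR7L, beside 47.1% of all genes, with a median of -0.04. They summed to 1696 FPKM with si-Lnc-Dpf3 and 1850.5 FPKM with si-NC. Unstimulated 13 were lower (median -0.13), with sums of 1657 FPKM with si-Lnc-Dpf3 and 1939 FPKM with si-NC. The part that these shifts of cell markers play in the interferon, cytokine and cell division differences was not tested.

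The MS4A family, membrane proteins of leukocytes, shows the same split within 1 gene family. Of 10 members 9 were lower with si-Lnc-Dpf3, and 4 were past 0.32 downwards, beside 2.05% of all genes. The exception was the granulocyte precursor gene Ms4a3 described above. Ms4a4c measured 35.6 FPKM with si-Lnc-Dpf3 and 61.3 FPKM with si-NC under CCR7L, and 33.6 FPKM with si-Lnc-Dpf3 and 66.6 FPKM with si-NC unstimulated (-0.77 and -0.97). Ms4a6d, a gene of monocytes and macrophages, had 97.2 and 132 FPKM with si-Lnc-Dpf3 and si-NC under CCR7L (-0.44), and Ms4a7 -0.37.

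Genes around Dpf3 on chromosome 12 gave 6 of 8 higher with si-Lnc-Dpf3 and a median of 0.04. Acot1, an acyl-CoA thioesterase gene at low level, had 2.86 FPKM with si-Lnc-Dpf3 and 1.68 FPKM with si-NC under CCR7L (0.53), and 2.89 FPKM with si-Lnc-Dpf3 and 1.8 FPKM with si-NC unstimulated (0.47). Dpf3 itself had -0.37 with CCR7L and -0.03 without, near the filter of 1 FPKM, and Numb was level (0.05).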

How the data were processed

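RNA was measured in 4 mouse dendritic cell libraries, 1 for each combination of siRNA (si-Lnc-Dpf3 or si-NC) and stimulation (CCR7L for 12 h or none), grouped by GEO's labels. Expression was used as the FPKM values the authors deposited for 18021 genes. Bowtie2, RSEM and the GRCm38 build are named in the submitters' processing notes, with no version given in the sources used here. FPKM keeps no read counts, so no count model was run, and RSEM, if it made the FPKM, would divide reads between similar transcripts in fractions. Column names carry siRNA and stimulation in abbreviated form and were matched to the labels. For 26 genes whose symbols had been turned into dates, the Entrez number was used to recover the symbol. RefSeq (GRCm38.p6) matched 17892 genes and gave the positions and promoters. Transcript lengths and GC content came from GENCODE transcript sequences instead, and were known for 10863 of the genes kept.

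Log2 ratios are of FPKM + 1, over genes whose FPKM averaged at least 1 across the 4 libraries. With 1 library a group there is no test; genes past log2 ratios of 0.32 (the lowest of 3 folds), past 1.5-fold and past 2-fold were counted. Depth was estimated from the steps of low FPKM values: for 180 to 210 genes a library, 58.3% to 70.0% of values were whole reads within 0.1. Chance gives 20% at a depth fixed beforehand. The depth and a length offset were chosen to make this share largest, so 20% understates what chance gives here. Counting intervals (95%) use the reads this depth implies. Named genes are the 15 highest and 15 lowest ratios at a mean of at least 5 FPKM, in each list up to 6 members with the largest ratios and up to 3 most abundant, all glycolysis genes, Hif1a, Dpf3, Ccr7, and the 8 genes each way that differ most between both pairs. The members and the 45 gene lists (8 entries were not found) were chosen with earlier results of these data known. Alternatives were pseudocounts of 0.1 and 5, no filter, a mean of at least 5 FPKM, equal totals, median-ratio scaling and, chosen after seeing the data, ratios with the trend over transcript length and GC content subtracted in 20 bins. The scripts were tested on simulated data. Python 3.11.15, pandas 2.3.3, numpy 2.4.6, scipy 1.17.1 and matplotlib 3.10.9 were used.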

Additional observations from a re-analysis of the deposited data

Results flagged for a closer look

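Some results had siRNA ratios of opposite sign with and without CCR7L. Listed are the named genes with one ratio past 0.32 in size and the other past 1.1-fold, and lists of at least 5 genes with medians of opposite sign and one of them at least 0.1 in size. With 1 library a group, none of these differences was tested. Values below are log2 ratios of si-Lnc-Dpf3 over si-NC.

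Higher with si-Lnc-Dpf3 under CCR7L and lower unstimulated by these sizes were 7 named genes. Rsc1a1 had 0.66 with CCR7L and -0.45 unstimulated, a difference of 1.11. Tmem254b had 0.72 and -0.31 in the same order of conditions (difference 1.02), Gm10698 had 0.27 and -0.51 (0.78), and Dynlt1f had 0.53 and -0.24 (0.78). Alkbh7, a mitochondrial protein gene, had 0.30 with CCR7L and -0.36 unstimulated (difference 0.65). A pair of cell markers near the filter did the same: Cd79a, a B cell receptor gene, had 0.21 and -0.51 (0.72), and Hba-a1, a haemoglobin gene, had 0.40 and -0.21 (0.61).

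Lower with si-Lnc-Dpf3 under CCR7L and higher unstimulated were the predicted genes LOC100862446, with -0.36 with CCR7L and 1.5 unstimulated (difference -1.86), LOC102638183 with -0.62 and 0.38 (-1.0), and LOC108167440 with -0.17 and 0.71 (-0.88). Gm3244 had -0.36 and 0.45 (-0.81), and 1700066C05Rik had -0.27 and 0.46 (-0.73). Several of these have near-identical copies, so that their values are uncertain.

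Among list medians, clustered histones had 0.04 with CCR7L and -0.18 unstimulated (difference 0.22), and cytosolic ribosomal proteins 0.12 and -0.08 (0.20). Eosinophil markers had -0.02 and 0.19 (-0.21), and apolipoprotein L genes -0.34 and 0.04 (-0.38). With the trend over length and GC content subtracted, clustered histones had -0.05 and -0.1 and ribosomal proteins 0.07 and 0.03, no longer of opposite sign. Eosinophil markers then had -0.02 and 0.2, and apolipoprotein L genes -0.39 and 0.03.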

How the results depend on the processing

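No paired analysis was possible because each group has 1 library, and for the same reason no library could be left out. The counts of genes depended on the pseudocount and on the filter, as weakly expressed genes enter or leave. With a pseudocount of 0.1, 473 genes lay past 0.32 on the log2 scale upwards and 399 downwards, 84 and 62 at 1.5-fold, 10 and 12 at 2-fold, and 682 genes past 0.32 had the same sign unstimulated (451 as reported). With a pseudocount of 5 these were 94 and 78, 14 and 9, 0 and 2, and 163. At a mean of at least 5 FPKM they were 199 and 133, 21 and 15, and 2 and 2. With no filter 44 genes were at least 1.5-fold lower. Equal totals, median-ratio scaling and removal of the trend with length and GC content each left 2 genes at least 2-fold higher, and gave 260 and 259, 252 and 268, and 253 and 257 genes past 0.32 upwards and downwards, against 313 and 226 as reported; the median over all genes was 0.009 as reported, -0.007 with equal totals and -0.010 with median-ratio scaling. Both all-gene medians thus lie on the other side of 0, and the excess of higher over lower genes is at most 1 gene under these 3 alternatives. No list median of at least 0.1 in size, and no named gene past 0.32, changed sign under the alternatives run for it. The limits are those of 1 library a side: counting error is the only error that can be estimated, and it is wide below 5 FPKM.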

Other observations

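Genes of eicosanoid synthesis were divided evenly, 9 higher and 9 lower with si-Lnc-Dpf3 under CCR7L (median log2 ratio -0.01), with members past 0.32 on both sides. Lta4h, which makes leukotriene B4, measured 62.4 FPKM with si-Lnc-Dpf3 and 46.5 FPKM with si-NC under CCR7L (0.42), and 66.2 FPKM with si-Lnc-Dpf3 and 47.4 FPKM with si-NC unstimulated (0.47). The cyclooxygenase genes parted, with the constitutive Ptgs1 at 31.2 FPKM with si-Lnc-Dpf3 and 24.3 FPKM with si-NC (0.35) and the inducible Ptgs2 at 36.3 and 46.6 FPKM (-0.35). Pla2g7, the platelet-activating factor hydrolase gene, was lower in both pairs (-0.35 with CCR7L and -0.36 without).

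C-type lectin genes were lower in 9 of 14 (median -0.08). Clec2d, a ligand of the NK cell receptor family, had 24.3 FPKM with si-Lnc-Dpf3 and 34.8 FPKM with si-NC (-0.50), and Clec12a, an inhibitory receptor gene of myeloid cells, 52.8 and 42.5 FPKM (0.30). Lysosomal genes divided evenly, 14 higher and 14 lower, and the most abundant among them was Cst3, the cystatin C gene of dendritic cells, at 2834 FPKM with si-Lnc-Dpf3 and 3325 FPKM with si-NC (-0.23). Genes of the m6A RNA methylation machinery were lower in 12 of 17 under CCR7L (median -0.03) and higher in 14 of 17 unstimulated (0.07), and 0 were past 0.32 under CCR7L. Their median transcript length was 3900 bases. Of 26 immediate early genes 2 were past 0.32 upwards, beside 2.83% of all genes, Klf2 among them at 13.4 FPKM with si-Lnc-Dpf3 and 10.2 FPKM with si-NC (0.37). Genes of the proteasome (23 of 37 higher, median 0.02) and of the Nrf2 response and metallothioneins (8 of 15 higher, median 0.03) lay at the middle of all genes, and of 11 genes of tryptophan, arginine and itaconate metabolism 7 were lower (median -0.16).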
